A study of Mus musculus with 2 samples.

Results

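The family of miR-15, miR-16, miR-195a and miR-497a is a group of microRNA genes whose main products begin with almost the same bases. Its 6 members, Mir15a, Mir16-1, Mir15b, Mir16-2, Mir195a and Mir497, were described in skeletal muscle of newborn mice, out of 1973 microRNA genes in the deposited tables. The members were chosen by gene name, with earlier results of these data known. Mir15a, Mir16-1, Mir15b, Mir16-2 and Mir195a were read from the strand on which they are annotated. Mir497 was read from the row of Mir497b, a gene annotated on the other strand of the same place, by taking the reads opposite to Mir497b, the strand on which all counts of that row lie. All 6 members had at least 10 reads in each library, as did 366 genes in all when the Mir497b row was read this way.

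RNA under 30 bases was sequenced from 2 muscle samples of B6NCrl mice at postnatal day 0, replicates 1 and 2 of a single group for which the labels name no treatment and no allele. Each sample is labelled as a piece of tissue from 1 pup, both samples name the same donor record, and sex was not collected. Whether the libraries come from separate animals is thus uncertain, and the spread between them may be technical. No condition was compared with another, so the values below are levels and differences between libraries, with no test.

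MicroRNAs are cut from hairpin-shaped precursors into mature strands that bind messenger RNAs and reduce the protein made from them, mainly through the seed, bases 2 to 8 of the mature strand. The strand from the left arm of the hairpin is called 5p and that from the right arm 3p. The miR-15 family is known for holding back cell division and survival: its targets include cyclins D1 and E1, the kinase Cdk6 and the survival factor Bcl2. In the mouse heart, Mir195a is known to increase after birth and to restrain the division of heart muscle cells, and in mouse muscle stem cells the products of Mir195a and Mir497 have been tied to the resting state. In humans, the locus of miR-15a and miR-16-1 is known as one that is often lost in chronic lymphocytic leukaemia.

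The mature 5p sequences are shown because they carry the seed that defines the family and show why the reads of the Mir16 pair cannot be shared out. They come from RefSeq on GRCm38.p6 and are written from the first base to the last, with the seed in capitals.
miR-15a-5p: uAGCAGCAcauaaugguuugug
miR-15b-5p: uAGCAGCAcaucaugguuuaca
miR-16-5p: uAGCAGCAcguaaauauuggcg
miR-195a-5p: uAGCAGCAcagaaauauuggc
miR-497a-5p: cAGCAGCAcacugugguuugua

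The 6 members gave 5 distinct 5p sequences, since Mir16-1 and Mir16-2 share one. Bases 2 to 9 were identical in all of them, 1 base more than the seed. Beyond that stretch they fell into closer and more distant pairs. Compared base by base from the first, miR-15a-5p and miR-15b-5p were identical at 18 of 22 positions, and miR-16-5p and miR-195a-5p at 19 of 21. The most distant pair, miR-16-5p and miR-497a-5p, matched at 11 of 22 positions. The 3p strands, given next because the tables count both arms of a hairpin together, had 6 different seeds, again in capitals.
miR-15a-3p: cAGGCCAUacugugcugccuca
miR-16-1-3p: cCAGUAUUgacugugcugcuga
miR-15b-3p: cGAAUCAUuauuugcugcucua
miR-16-2-3p: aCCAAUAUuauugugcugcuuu
miR-195a-3p: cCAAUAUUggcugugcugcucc
miR-497a-3p: cAAACCACacugugguguuag

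The family lies in 3 clusters of 2 genes, each on 1 strand, in the GENCODE M21 annotation of GRCm38, the assembly also called mm10. Mir15a at chr14:61632027-61632110 and Mir16-1 at chr14:61631880-61631972 stand 54 bases apart on the minus strand, within the noncoding gene Dleu2. Mir15a lies in an intron, while 13 bases of Mir16-1 fall in an annotated Dleu2 exon. Mir15b at chr3:69009772-69009835 and Mir16-2 at chr3:69009902-69009996 stand 66 bases apart on the plus strand, in an intron of Smc4, a gene for a condensin subunit that helps to pack chromosomes before division. Mir497 at chr11:70234717-70234800 and Mir195a at chr11:70235042-70235135 stand 241 bases apart on the plus strand, where no other gene is annotated on the same strand. Mir497b, whose row gave the Mir497 reads, covers chr11:70234692-70234816 on the minus strand.

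Replicate 1 held 16398945 reads and replicate 2 held 21037937, and 7955914 and 10816295 of these fell on microRNA genes in the annotated direction. Levels are given as CPM, the count after scaling these microRNA counts to a total of 1000000 in each library. A count of 0 allows a level of up to 0.377 CPM in replicate 1 and 0.277 CPM in replicate 2, taking 3 counts as the floor, and all intervals and floors cover counting error only. Reads that fit several places were set apart by the authors and made up 28.01% and 26.9% of reads in replicates 1 and 2. Checked against the muscle label, Mir206, the skeletal muscle microRNA, had 107144 CPM in replicate 1 and 120690 CPM in replicate 2 at rank 1, while the heart gene Mir208a had 15.5 and 12.1 CPM. The other muscle genes on the list were far lower. Mir133b had 841 and 823 CPM, Mir208b 732 and 763 CPM and Mir499 545 and 442 CPM in replicates 1 and 2. The lowest were Mir1a-1 with 10.1 and 6.47 CPM and Mir133a-1 with 5.91 and 5.55 CPM. Both are known to have near-identical copies elsewhere in the genome, and reads that fit several copies are not counted for them. The part of such reads in their low levels was not tested. In bulk tissue, fewer cells of a type and less RNA per cell cannot be told apart.

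Together the 6 members took 0.378% ± 0.0880 (SD, n = 2) of the microRNA counts. The share was 0.441% in replicate 1 (95% exact Clopper-Pearson interval 0.436 to 0.445) and 0.316% in replicate 2 (0.313 to 0.319). As counted, all 6 stood in the upper part of the detected range without being among the most abundant genes. Their ranks by mean CPM ran from 73 to 154 of 366, and their median level was 599.8 CPM, against 87.5 CPM over all genes compared. Reads that fit both Mir16-1 and Mir16-2 were set apart, so the share, the ranks and the median hold for the counted reads only. Ranked only among genes with a mature sequence of their own, Mir15a stood at 69, Mir195a at 96, Mir497 at 101 and Mir15b at 125. A ranking within fewer genes can only lower such numbers. Mir206 exceeded the member with the highest counted level, Mir15a, 64.3-fold in replicate 1 and 107.6-fold in replicate 2.

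**Figure D1:**
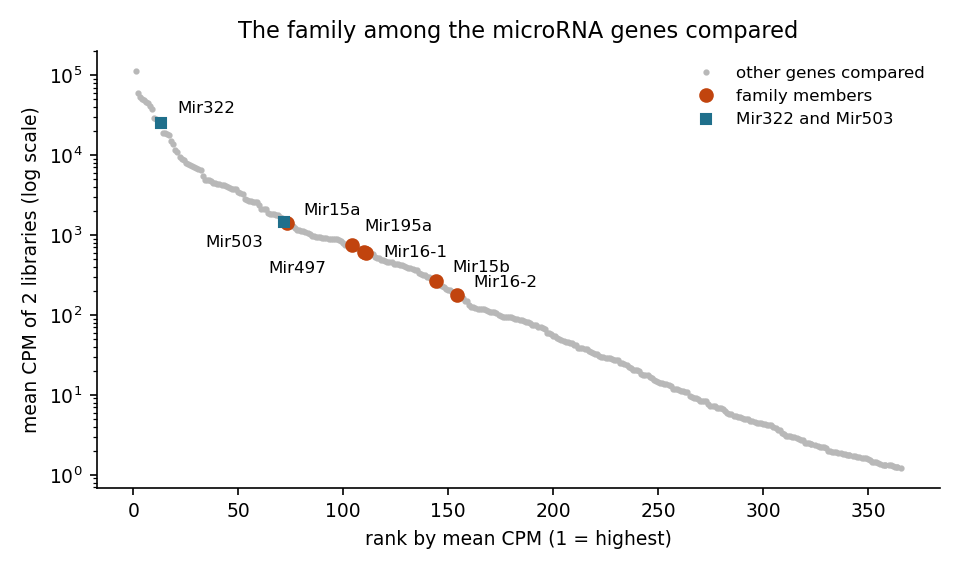
Mean CPM of 2 libraries (log scale) against rank for the 366 genes compared, with the 6 family members as orange points and the seed relatives Mir322 and Mir503 as blue squares. By counted reads, the members sit between ranks 73 and 154, while Mir322 stands at rank 13.

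Mir15a, whose product is a classic repressor of Bcl2 in human lymphocytes, had the highest counted level of the family. The order given here and below is that of the counted reads, since reads that fit both Mir16-1 and Mir16-2 were set apart. It had 13261 counts (1667 CPM) in replicate 1 and 12129 counts (1121 CPM) in replicate 2, a mean of 1394 CPM ± 386 (SD, n = 2) at rank 73. Its lower library stood above every counted value of the other 5 members. Its cluster partner Mir16-1 had 6101 counts (767 CPM) in replicate 1 and 4514 counts (417 CPM) in replicate 2, a mean of 592 CPM ± 247 at rank 111. The 2 libraries of Mir16-1 spanned both libraries of Mir497, so these neighbours in the order cannot be told apart.

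Mir195a, the member best known for its increase in the mouse heart after birth, came second by counted reads. It had 6036 counts (759 CPM) in replicate 1 and 7915 counts (732 CPM) in replicate 2, a mean of 745 CPM ± 19.0 (SD, n = 2) at rank 104. Mir497, read from the Mir497b row, had 5384 counts (677 CPM) in replicate 1 and 5822 counts (538 CPM) in replicate 2, a mean of 607 CPM ± 97.9 at rank 110. Mir195a was higher than Mir497 in each library, by 82.0 CPM in replicate 1 and 193.5 CPM in replicate 2, and their ranges did not overlap.

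The Smc4 pair had the lowest counted levels, and the count of Mir16-2 is a lower limit. Mir15b had 2250 counts (283 CPM) in replicate 1 and 2728 counts (252 CPM) in replicate 2, a mean of 268 CPM ± 21.6 (SD, n = 2) at rank 144. Mir16-2 had 2019 counts (254 CPM) in replicate 1 and 1078 counts (99.7 CPM) in replicate 2, a mean of 177 CPM ± 109 at rank 154. The replicate 1 value of Mir16-2 just exceeded the replicate 2 value of Mir15b, so the order of this pair does not hold beyond the spread between libraries. The level of Mir15a was 5.89-fold that of Mir15b in replicate 1 and 4.45-fold in replicate 2.

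**Figure D2:**
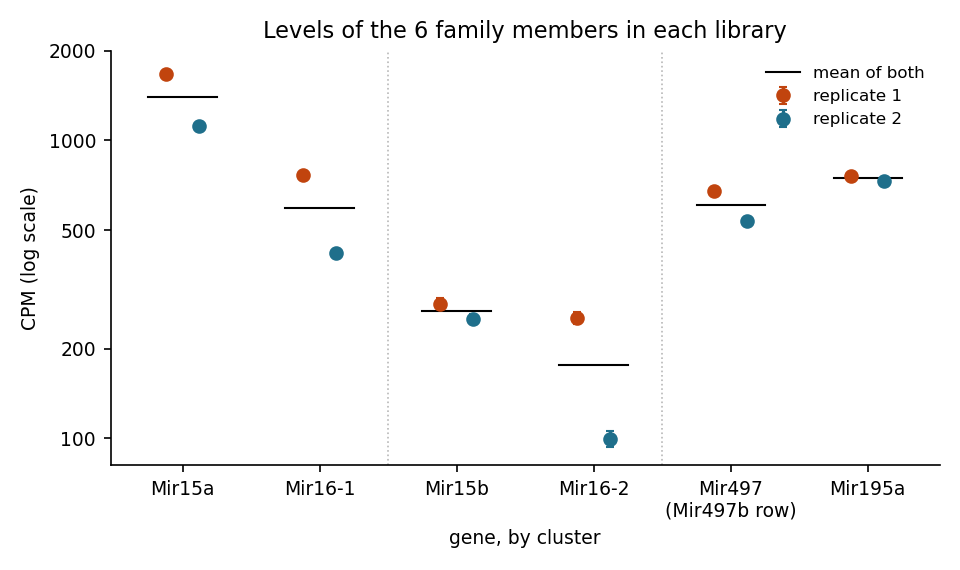
CPM (log scale) of each family member in replicate 1 (orange) and replicate 2 (blue), grouped by cluster, with the mean as a line and 95% exact Poisson intervals for counting error as error bars, mostly smaller than the points. The libraries lie close together for Mir195a (759 and 732 CPM) and far apart for Mir16-2 (254 and 99.7 CPM).

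By cluster, the Dleu2 pair had 2434 CPM in replicate 1 and 1539 CPM in replicate 2, the pair of Mir497 and Mir195a 1435 and 1270 CPM, and the Smc4 pair 537 and 352 CPM. This order held in each library for the reads counted. The Dleu2 and Smc4 sums each hold a Mir16 gene whose count leaves out reads that fit both Mir16 places. These sums and their ratios thus hold for the counted reads only, and the ratio of the 2 pairs could lie lower or higher. As counted, the Dleu2 pair exceeded the Smc4 pair 4.54-fold and 4.37-fold in replicates 1 and 2, a ratio that hardly moved between them. Its lead over the pair of Mir497 and Mir195a was smaller and moved more, with 1.70-fold in replicate 1 and 1.21-fold in replicate 2. As shares of the family's counts, with the same limit, the Dleu2 pair held 52.0% ± 4.64, the pair of Mir497 and Mir195a 36.4% ± 5.38 and the Smc4 pair 11.7% ± 0.740 (SD, n = 2).

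**Figure D3:**
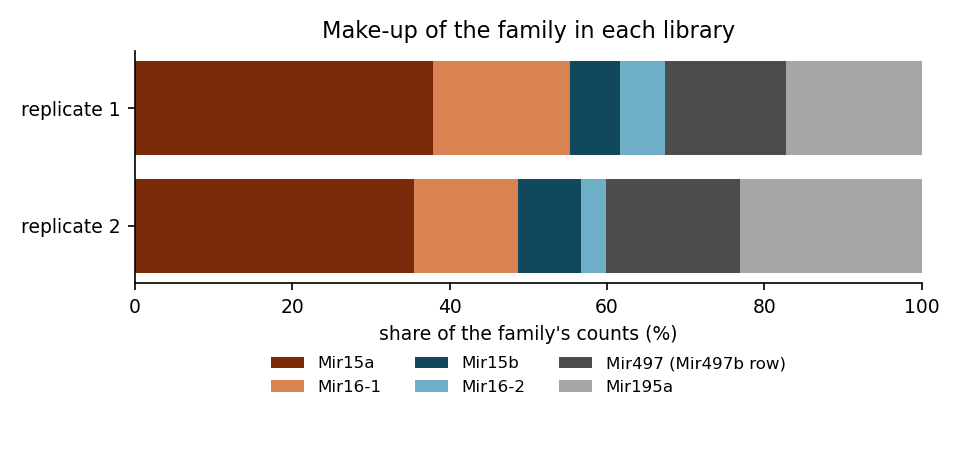
Share of the family's counts (%) held by each member in replicate 1 (upper bar) and replicate 2 (lower bar), with members of a cluster in shades of one colour. Mir15a held 37.8% and 35.5%, while Mir16-2 held 5.76% and 3.15%, and Mir195a 17.2% and 23.2%, in replicates 1 and 2.

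The counts of Mir16-1 and Mir16-2 are lower limits. Their CPM values need not be, since the reads set apart are also missing from the totals. The 22 bases of miR-16-5p are the same in both hairpins, and the run shared by the hairpins is 23 bases long. A read that lies wholly inside that run fits both places equally well, and reads that fit several places were set apart. How many such reads there were is not known, and the reads counted for Mir16-1 and Mir16-2 can come from either arm. The hairpins are printed with the shared run in capitals, Mir16-1 from chromosome 14 and Mir16-2 from chromosome 3, both from RefSeq on GRCm38.p6.
Mir16-1: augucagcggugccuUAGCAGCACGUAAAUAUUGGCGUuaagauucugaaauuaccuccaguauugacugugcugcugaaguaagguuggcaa
Mir16-2: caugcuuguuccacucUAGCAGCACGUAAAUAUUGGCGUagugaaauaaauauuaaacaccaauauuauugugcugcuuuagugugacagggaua

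The other mature 5p sequences of the family were each found in 1 of the 1058 genes with a mature sequence in the RefSeq table. The longest run that miR-195a-5p shared with the hairpins of Mir15b, Mir16-1, Mir16-2, Mir497 and Mir195b was 16 bases, and the longest that miR-15a-5p shared with the hairpins of the other 5 members was 11. The reads set apart equalled 131 times the family's counts in replicate 1 and 165 times in replicate 2, so even a small part of them could change the place of the Mir16 genes in the order.

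Within each cluster, 1 partner had more counts in both libraries. The Mir16-1 count was 0.460 of the Mir15a count in replicate 1 (95% exact interval 0.446 to 0.474) and 0.372 in replicate 2 (0.360 to 0.385). The Mir497 count was 0.892 of the Mir195a count in replicate 1 (0.860 to 0.926) and 0.736 in replicate 2 (0.711 to 0.761). For Mir16-2 and Mir15b the ratio was 0.897 in replicate 1 (0.845 to 0.953) and 0.395 in replicate 2 (0.368 to 0.424). By mean CPM, Mir195a was 1.23-fold above Mir497, both with mature sequences of their own. The counts of Mir16-1 and Mir16-2 are lower limits, so how near they stand to their partners in level is not known.

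The ratios of counted levels were set beside 104 other pairs of neighbouring detected microRNA genes, on 1 strand and at most 10 kb apart, a comparison chosen after the family's values were seen. Across those pairs the median size of the log2 ratio of mean levels was 2.88, and the quartiles were 1.25 and 5.06. In the family it was 1.24 for Mir16-1 and Mir15a, 0.60 for Mir16-2 and Mir15b and 0.29 for Mir497 and Mir195a, all below the lower quartile. The first of these lay only just below it. Of the 104 other pairs, 20 held a gene with a shared mature sequence, whose counts can also leave out reads. For the family pairs with a Mir16 gene, the values hold for the counted reads only, since the Mir16 count is a lower limit.

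Differences between the libraries were measured as log2 ratios of replicate 1 over replicate 2, after scaling by the trimmed mean of M-values (TMM), which moved every ratio by -0.25 against plain library totals. Of the 6 members, 1 was past 2-fold: Mir16-2 was 2.15-fold higher in replicate 1. On the log2 scale this is 1.10, with a 95% counting interval of 1.00 to 1.21 whose lower bound lies just under 2-fold. Of all 366 genes compared, 7.1% passed 2-fold towards replicate 1 and 1.09% passed it towards replicate 2. With 1 of 6 members past 2-fold, nothing particular to the family can be read from the count.

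The remaining log2 ratios were 0.63 for Mir16-1, 0.33 for Mir15a, 0.08 for Mir497, -0.08 for Mir15b and -0.19 for Mir195a. The members' median was 0.21, beside 0.01 over all genes compared, with 4 of 6 members and 52.7% of all genes above 0. Under library totals the counts became 6 of 6 members and 72.1% of genes, so the signs of Mir15b (0.17) and Mir195a (0.05) depend on the scaling. Both Mir16 genes, whose products share 1 mature sequence, had higher ratios than the members with mature sequences of their own.

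**Figure D4:**
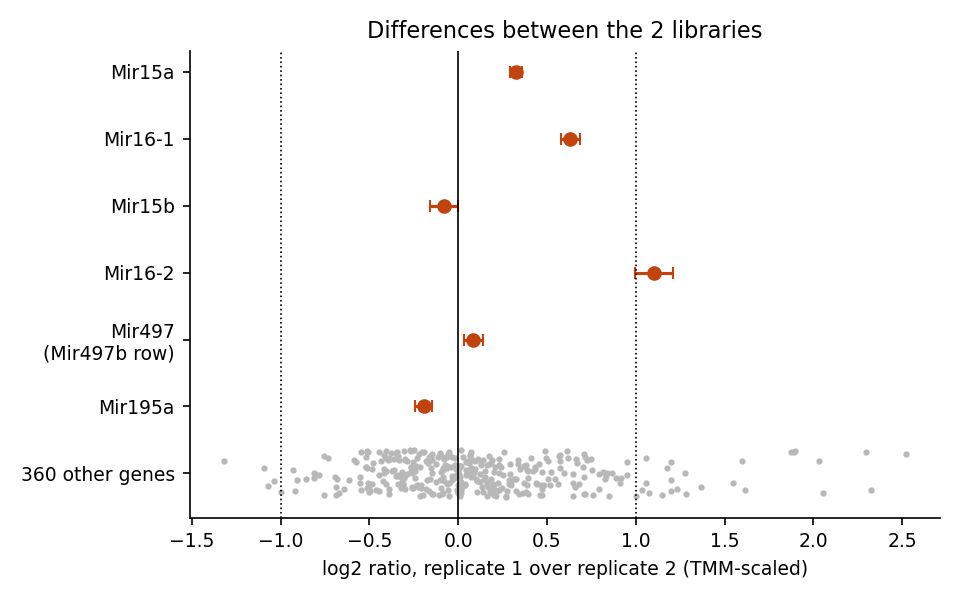
TMM-scaled log2 ratio of replicate 1 over replicate 2 for each family member, with 95% exact counting intervals as error bars, above the 360 other genes compared (grey, spread vertically for display). The dotted lines mark 2-fold, which only Mir16-2 (1.10) of the 6 members passed under TMM scaling.

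Scaling shifts the log2 ratios of both partners of a cluster by the same amount, so it cancels when these ratios are set against each other. They differed by 1.18 for Mir16-2 and Mir15b (95% exact counting interval 1.05 to 1.32), by 0.31 for Mir16-1 and Mir15a (0.24 to 0.37) and by 0.28 for Mir497 and Mir195a (0.21 to 0.35). Of all 107 neighbouring pairs, the family's included, 12 (11.2%) differed by at least 1 on the log2 scale, and the median over the other 104 pairs was 0.32. The pair of Mir16-2 and Mir15b was seventh by size of difference, while the remaining family pairs lay close to that median.

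Pairs that held a gene with a shared mature sequence were also counted apart, a split made after the values were seen and not tested. Among 22 such pairs, 8 (36.4%) differed by at least 1 on the log2 scale, against 4 (4.71%) of the 85 pairs without one. Pairs in a row share a gene, as do Mir134 with Mir668 and Mir668 with Mir485 among these 4, so the pairs are not separate units. The pair of Mir16-2 and Mir15b, whose values prompted the split, is among the 8. Outside the family, the counts were 7 of 20 pairs and 4 of 84. Gene by gene, 8 of 44 genes that share a mature sequence were past 2-fold between the libraries (18.2%), against 18 of 292 genes with mature sequences of their own (6.16%) and 4 of 30 genes with no entry in the sequence table (13.3%). The median log2 ratio was 0.22 for the genes that share one, -0.02 for those with their own and 0.29 for those with no entry. Mir16-1 and Mir16-2 are among the 44, and without them 7 of 42 genes were past 2-fold. How many of the genes with no entry share a sequence is not known, and the part that shared sequence plays in their ratios was not tested.

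**Figure D5:**
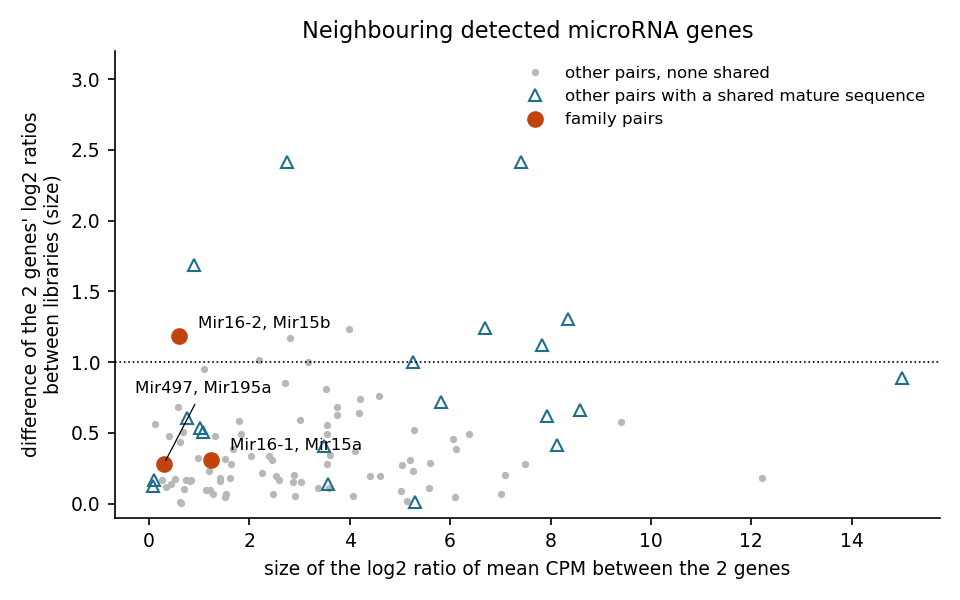
Size of the difference between the log2 ratios (replicate 1 over replicate 2) of 2 neighbouring detected genes, against the size of the log2 ratio of their mean CPM, for 107 pairs. Family pairs are orange points and other pairs that hold a gene with a shared mature sequence are open triangles. The pair of Mir16-2 and Mir15b lies at 1.18, above the dotted line at 2-fold, and the other 2 family pairs lie at 0.31 and 0.28.

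The reading of Mir497 rests on the strand. The Mir497b row held 0 counts on its annotated strand in each library and 5384 and 5822 on the opposite strand in replicates 1 and 2, while the other 5 members had 0 counts opposite to their annotation in both. Of 20 genes with at least 10 opposite-strand counts in each library, 6 had 0 on their own strand in both, and 16 lie opposite another annotated microRNA gene. Mir497b was ninth among the 20 by opposite-strand level and held 0.563% of all opposite-strand counts in replicate 1 and 0.400% in replicate 2.

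Of the 1058 genes with a mature sequence in the RefSeq table, 11 carry the family's seed at bases 2 to 8, the 6 members and 5 more. Their sequences, with the seed in capitals, separate relatives that keep the ninth base of the family from those that do not. Mir503 is added as a near relative whose seed ends in another base.
miR-195b: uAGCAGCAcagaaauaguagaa
miR-6353: uAGCAGCAcguauuuauccuauu
miR-322-5p: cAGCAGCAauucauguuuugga
miR-6342: cAGCAGCAaucuggucuuugag
miR-6419: cAGCAGCAaucugacacaugga
miR-503-5p: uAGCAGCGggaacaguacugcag

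Mir322, a gene of a cluster on chromosome X that is linked to muscle differentiation in mouse cells, held most of the counts of genes with this seed. It had 26652 CPM in replicate 1 and 23800 CPM in replicate 2, which was 6.05-fold and 7.53-fold the sum of the 6 members. As counted, the 6 members therefore held 14.2% and 11.7% of the counts of genes with the seed in replicates 1 and 2. Reads that fit both Mir16-1 and Mir16-2 are missing from these sums, so the ratios and shares hold for the counted reads only. Gene counts also take both arms of a hairpin together, so they do not give the share of strands that carry the seed. Mir195b, Mir6353, Mir6342 and Mir6419 had 0 counts in each library, as did Mir1907, which was on the list of relatives but has no entry in the sequence table. Mir503, the neighbour of Mir322, had 1737 CPM in replicate 1 and 1197 CPM in replicate 2, and stood directly above Mir15a in the order, with a log2 ratio of 0.29 beside 0.33 for Mir15a.

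The genes nearest in mean level to each member show how finely the order of the counted reads is resolved. Mir15a stood between Mir503 and Mir181c (1374 CPM ± 211), Mir195a between the slow-muscle gene Mir208b (747 ± 21.6) and Mir494 (731 ± 111), and Mir497 between Mir770 (619 ± 38.0) and Mir16-1. Mir320 (591 ± 142) stood below Mir16-1. Mir15b stood between the skin gene Mir203 (280 ± 16.6) and Mir107 (236 ± 54.7), and Mir16-2 between Mir181b-2 (186 ± 148) and Mir204 (175 ± 38.0; SD, n = 2 each). Of these neighbours, Mir503, Mir203 and Mir107 kept their side of the member in both libraries, and the others changed sides between them.

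The family was also set beside 10 microRNAs of other seeds that are linked to the cell cycle. Mir17, Mir20a, Mir93, Mir106b and Mir25 belong to clusters known to favour proliferation. Mir221 and Mir222 are known to repress the cell-cycle inhibitor p27, and Mir34a, Mir34b and Mir34c are known as targets of p53. All 10 were detected, with a median level of 211 CPM, and 0 of 10 were past 2-fold between the libraries, beside 8.2% of all 366 genes in either direction. Their log2 ratios had a median of 0.49 and ran from -0.01 for Mir25 to 0.95 for Mir34c. Under TMM scaling 9 of 10 were above 0, beside a median of 0.01 and 52.7% above 0 over all genes. Several of the 10 lie in the same cluster, as do Mir221 with Mir222 and Mir34b with Mir34c, so they are not separate units. Mir17 had 4666 CPM in replicate 1 and 2768 CPM in replicate 2, above Mir15a in each library, while Mir106b (876 and 690 CPM) stood near Mir195a.

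Markers of other tissues were present in both libraries. Of 12 such genes, 2 were past 2-fold between the libraries, beside 8.2% of all genes, and 0 were at 0 counts in either. The epithelial gene Mir200c had 59.6 CPM in replicate 1 and 12.1 CPM in replicate 2, while the log2 ratios of the other epithelial genes lay below 0, at -0.12 for Mir203 and -0.07 for Mir205. The liver gene Mir122 had 86.4 CPM in replicate 1 and 153.1 CPM in replicate 2. Summed by list, the 3 epithelial genes had 378 CPM in replicate 1 and 304 CPM in replicate 2, the 2 erythroid genes (Mir451a and Mir144) 583 and 286 CPM, and the 2 leukocyte genes (Mir223 and Mir150) 574 and 448 CPM. The 2 smooth muscle genes (Mir143 and Mir145a) had 31531 CPM in replicate 1 and 28507 CPM in replicate 2, and the endothelial gene Mir126a had 44986 and 47428 CPM. The part of other cell types in the log2 ratios of Mir16-2 and Mir16-1 was not tested.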

How the data were processed

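The authors deposited 1 table per library of raw counts for 1973 microRNA genes, with 3 columns (either strand and each strand) and 4 rows that name no gene. Per the file headers in the readme texts, the assembly is mm10 and the annotation GENCODE M4. Aligner and counter: not given in the sources used here. The strand columns sum to the first for all 1973 genes; which of them is the annotated strand was inferred from its larger counts. Gene IDs were matched without version to GENCODE M21 (1894 matched; Mir15b carries version 1 in the tables and 2 in M21). The 4 rows stayed out of totals; they hold 28.01% and 26.9% of reads that fit several places, 16.0% and 13.4% unmapped and 1.60% and 1.43% in no gene.

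CPM used the annotated-strand totals, also for the Mir497b row. Genes with 10 counts in both libraries were compared. Ratios used TMM factors of 1.09 and 0.918 (edgeR 4.0.16, R 4.3.3), and 2-fold was the fold minimum. The libraries differed by far more than counting noise (chi-square of 928 per degree of freedom), so they are not copies of 1 library. This does not show that they come from separate animals. Intervals are exact at 95% (scipy 1.17.1). With 1 group no test was planned or made. Tables and plots used pandas 2.3.3, numpy 2.4.6 and matplotlib 3.10.9 in Python 3.11.15.

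The genes named are the members, seed relatives, level neighbours, cell-cycle-linked genes and markers of the fixed lists; the members and lists were chosen with earlier results of these data known. Mir142, on the marker list, was not matched and is not analysed here. Alternatives were strand, denominator, DESeq2 1.42.0 size factors, library totals, count and fold minimums, and each replicate left out. For ranks, the genes with a mature sequence of their own were also taken alone.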

Additional observations from a re-analysis of the deposited data

How the results depend on the processing

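The family's share of 0.378% became 0.188% per all reads, the reads in no gene included, and stayed within its spread between libraries when Mir497b was left out or read on its annotated strand (0.318%) and with counts on either strand (0.336%). Without a replicate it was 0.316% to 0.441%, the values of the single libraries. Of the 6 members, 1 was past 2-fold between the libraries under TMM, DESeq2 size factors, library totals, count minimums of 1 and 50 and counts on either strand, and 2 were past a fold minimum of 1.5, Mir16-2 and Mir16-1. Over all genes the count of 30 became 115 with a count minimum of 1, 15 with a count minimum of 50 and 84 with a fold minimum of 1.5. Library totals moved each member's log2 ratio up, to 1.35 for Mir16-2 and 0.88 for Mir16-1, and gave Mir195a 0.05 and Mir15b 0.17 in place of values below 0; with a count minimum of 1, Mir15b stood at 0.00355. Without replicate 1 the ratio of Mir16-2 to Mir15b was 0.395 and without replicate 2 it was 0.897, a 2.27-fold range. Counts on either strand leave the partner ratios as they are by construction, since no member has counts on its other strand, and with 2 libraries a value without 1 of them always lies within 1 SD, so neither shows stability. Of the alternatives that keep both libraries, 10 of 24 moved a member's level by more than its spread and 8 of 22 its rank. Count minimums of 1 and 50 only add or drop genes with few counts, so they could hardly move a rank. Leaving out Mir497b cannot change the level of another member, and counts on either strand and counts per both strands gave the same levels. These totals therefore understate how often a setting that could move a value did so. No paired analysis was possible because there is 1 group. With 1 group of 2 libraries, uncertain in origin, animal and library cannot be told apart, and the tables cannot tell the arms of a hairpin apart.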
